A study of Mus musculus with 2 samples.

Results

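The MHC class II presentation genes were 10 genes picked by name: H2-Aa, H2-Ab1, H2-Eb1, Cd74, H2-DMa, H2-DMb1, H2-DMb2, H2-Oa, H2-Ob and Ciita. They were 10 of the 19960 genes listed for a droplet scRNA-seq study of leukocytes of the mouse omentum, the abdominal fat sheet whose lymphoid clusters are called milky spots. They were picked by symbol alone. The study compared 2 libraries, WT and DTR, each made from the pooled omenta of 3 mice 5 days after intraperitoneal diphtheria toxin (DT). DTR mice were Postn Dtr/+ heterozygotes on a C57BL/6 background, in which the DT receptor was placed in the coding sequence of Postn, so that DT removes cells in which the Postn promoter is active. That promoter is also used by mesenchymal cells of other tissues, and WT mice carried no receptor but were given the same toxin. With 1 library per group there was no replicate, so no difference below has a p-value or an error between mice.

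MHC class II molecules are heterodimers of an alpha and a beta chain that carry peptides from endosomes to the cell surface, where CD4+ T cells read them. The invariant chain, encoded by Cd74, fills the groove until it is cut down to a short peptide. H2-DM then exchanges that peptide for others, and H2-O holds H2-DM back, mostly in B cells. Ciita is the transactivator that class II promoters need, and it is switched off when a B cell becomes a plasma cell. B cells and dendritic cells (DCs) carry class II constantly, whereas monocytes and macrophages vary with their environment.

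After filtering, 8654 WT cells and 5727 DTR cells were left, with a median of 5635 and 8472 UMIs per cell. The deposited values were back-transformed to UMIs per 10000 UMIs of the cell, and a level below is the mean of that value over the cells of a class. Cells were clustered without the class II genes, so a class was not defined by the values reported for it. A class is called "-like" because its name rests on marker genes. Postn, the gene that carries the receptor, was too sparse in these leukocyte libraries to check the labels: 84 UMIs in 34 of 8654 WT cells and 20 UMIs in 8 of 5727 DTR cells, with 9 of 43 and 4 of 20 stromal-like cells holding a UMI. The 2 libraries shared 65 barcode sequences. Levels are compared between classes and libraries for the same gene, not between genes.

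Of the 10 genes, 8 lie in the class II region of chromosome 17 (GRCm38, GENCODE M21 annotation). In order of position these are H2-Oa (chr17:34092340-34095234, + strand), H2-DMa (chr17:34119541-34139101, +), H2-DMb2 (chr17:34143307-34151555, +), H2-DMb1 (chr17:34153072-34160230, +), H2-Ob (chr17:34238903-34254414, +), H2-Ab1 (chr17:34257689-34269419, +), H2-Aa (chr17:34282744-34287823, - strand) and H2-Eb1 (chr17:34305867-34316674, +). Ciita lies on chromosome 16 (chr16:10480059-10528418, +), and Cd74 on neither of these chromosomes. Of all 50-base stretches of the H2-DMb1 transcripts, 22.7% also occurred in H2-DMb2 transcripts, so part of the reads of this pair could not be told apart, and their values are uncertain to that extent. H2-Oa shared 321 of its 1407 exon bases with the antisense gene BC051537, and H2-DMa shared 360 of 3448 with Brd2 on the other strand.

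Class II promoters share an X and a Y box, which hold the protein complex that recruits Ciita. RefSeq promoter sequence (GRCm38.p6) was at hand for 7 of the 10 genes. The Y box core was searched as GATTGG and the X1 box core as AGNAAC, on both strands, in the 250 bases before each start; the letters of the 2 cores do not overlap. The stretch from 120 to 30 bases before the start is shown for the genes in which it holds a core, except H2-DMb1, whose stretch is annotated as 5′ UTR. Starts are the RefSeq ones. By the GENCODE spans given above, the H2-DMb2 stretch lies inside its gene, and the H2-Oa stretch runs past the first base of its gene. Capitals mark the cores.
H2-Aa (chr17:34287853-34287943, - strand): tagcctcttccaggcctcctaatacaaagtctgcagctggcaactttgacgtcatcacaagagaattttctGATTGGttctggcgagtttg
H2-Eb1 (chr17:34305747-34305837, + strand): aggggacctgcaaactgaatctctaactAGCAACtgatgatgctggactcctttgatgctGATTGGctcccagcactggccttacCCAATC
H2-DMb2 (chr17:34145129-34145219, + strand): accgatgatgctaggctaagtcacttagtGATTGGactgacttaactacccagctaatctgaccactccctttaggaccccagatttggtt
H2-Oa (chr17:34092259-34092349, + strand): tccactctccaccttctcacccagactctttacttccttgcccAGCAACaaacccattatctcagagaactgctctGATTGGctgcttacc
H2-Ob (chr17:34238785-34238875, + strand): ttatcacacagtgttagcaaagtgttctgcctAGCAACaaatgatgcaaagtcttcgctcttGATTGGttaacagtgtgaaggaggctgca
A Y core was found for 7 of the 7 genes and an X1 core for 4 of them (H2-Eb1, H2-DMb1, H2-Oa and H2-Ob). Of 32851 promoters of the same length, 14.56% held a Y core and 42.26% an X1 core. In those 4 genes the X1 core stood 24 to 27 bases before the Y core on the same strand. An X1 core followed by a Y core after 15 to 35 bases, a distance set with these promoters in view, was found in 52 of the 32851, or 0.16%. The H2-DMa match lay 199 bases before the second of 2 listed starts. These are matches of letters, and binding was not measured.

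**Figure D1:**
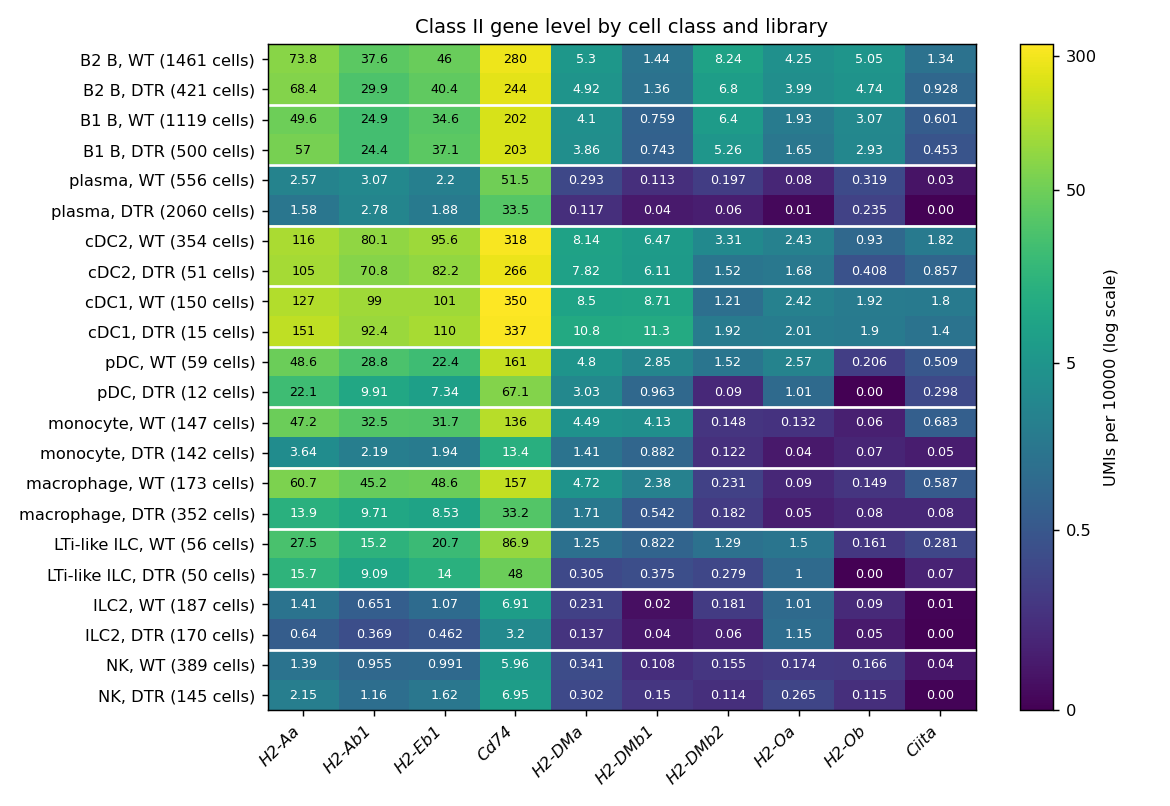
Level of each of the 10 genes (columns) in 11 cell classes of the WT and DTR libraries (rows, with the number of cells). Each cell of the map gives the mean UMIs per 10000, and its colour shows the same value on a log scale. B cells and conventional DCs (cDC1, cDC2) are high in both libraries, whereas monocytes and macrophages are high in WT and low in DTR.

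The heterodimer genes, a label used here for the chain genes H2-Aa, H2-Ab1 and H2-Eb1, had their highest RNA levels in conventional DCs. H2-Ab1, the beta chain of I-A, stood at 99.0 UMIs per 10000 in the WT cDC1-like cells, 80.1 in cDC2-like, 45.2 in macrophage-like, 37.6 in B2-like B, 32.5 in monocyte-like, 28.8 in plasmacytoid DC (pDC)-like, 24.9 in B1-like B and 15.2 in lymphoid tissue inducer (LTi)-like innate lymphoid cells (ILCs). Plasma-like cells were at 3.07, NK-like cells at 0.955 and ILC2-like cells at 0.651. The order was not the same in DTR. There H2-Ab1 was at 92.4 in cDC1-like and 70.8 in cDC2-like cells, then at 29.9 in B2-like and 24.4 in B1-like B cells. Macrophage-like cells had dropped behind both B cell classes to 9.71, and monocyte-like cells, at 2.19, behind plasma-like cells at 2.78. T-like cells, which should lack class II in mice, had 0.470 in WT and 0.161 in DTR. With 1 library per group there is no spread between samples to tell neighbours in these orders apart. Immunoglobulin, T cell receptor, mitochondrial and ribosomal protein genes made up 63.5% of the plasma-like UMIs in WT and 63.3% in DTR. They made up 32.8% and 35.3% in B2-like cells, and 18.1% and 22% in monocyte-like cells. This share lowers the plasma-like values per 10000 against those of other classes.

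H2-Aa, which encodes the I-A alpha chain, and H2-Eb1, which encodes the I-E beta chain, followed the same classes. Only RNA was measured, so the H2-Eb1 levels do not show that an I-E heterodimer was made or lost. H2-Aa went from 127 in WT cDC1-like cells to 47.2 in monocyte-like and 27.5 in LTi-like cells. H2-Eb1 was at 101 and 95.6 in the WT cDC1-like and cDC2-like cells and at 22.4 in pDC-like cells. There were 41.5 H2-Eb1 UMIs (95% Poisson interval 41.04 to 41.95, counting error only) per 100 UMIs of H2-Aa and H2-Ab1 together in WT B2-like cells, and 48.4 (47.9 to 48.8) in cDC2-like cells. pDC-like cells were lower, at 29.9 (28.3 to 31.6).

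Monocyte-like cells showed the widest gap between the libraries among the 9 classes compared. H2-Ab1 was at 32.5 in the 147 WT cells and 2.19 in the 142 DTR cells. H2-Aa was at 47.2 and 3.64, and H2-Eb1 at 31.7 and 1.94. Cd74 was at 136 and 13.4. On the log2 scale, with 0.05 added to each level, these were differences of -3.87 for H2-Ab1, -3.68 for H2-Aa, -4.00 for H2-Eb1 and -3.34 for Cd74. From summed UMIs the H2-Ab1 ratio was -4.11, with an exact 95% interval of -4.30 to -3.92 that covers counting error only. The peptide editor had smaller ratios, with H2-DMa from 4.49 to 1.41 (log2 ratio -1.63) and H2-DMb1 from 4.13 to 0.882 (-2.16). Of the 6 members with at least 100 UMIs over both libraries in this class, 6 were lower in DTR by 1.5-fold or more and 0 higher, with a median log2 ratio of -3.51; of all 3611 genes measured there, 13.6% were lower and 7.98% higher, with a median of -0.04.

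The 4 genes H2-Aa, H2-Ab1, H2-Eb1 and Cd74 are summed below as the core level of a cell. In WT the monocyte-like cells were split. Their median core level was 28.0, the lower quartile 2.70 and the upper quartile 374, and 65 of 147 cells (44.2%, exact 95% interval 36.0 to 52.6) were at 100 or above. In DTR the median was 0, the upper quartile 2.22, and 9 of 142 cells (6.34%, 2.94 to 11.7) were at 100 or above. Cells with no UMI of any of the 4 genes made up 12.9% in WT and 59.2% in DTR. After every cell was thinned to 1000 UMIs these shares were 30.8% and 78.9%, against 88.1% and 92.8% of T-like cells. Median depth was 8730 UMIs in WT and 8314 in DTR. Called doublets held 12.9% of the core UMIs of this class in WT and 48.1% in DTR, and without them the log2 ratio of H2-Ab1 was -4.29.

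**Figure D2:**
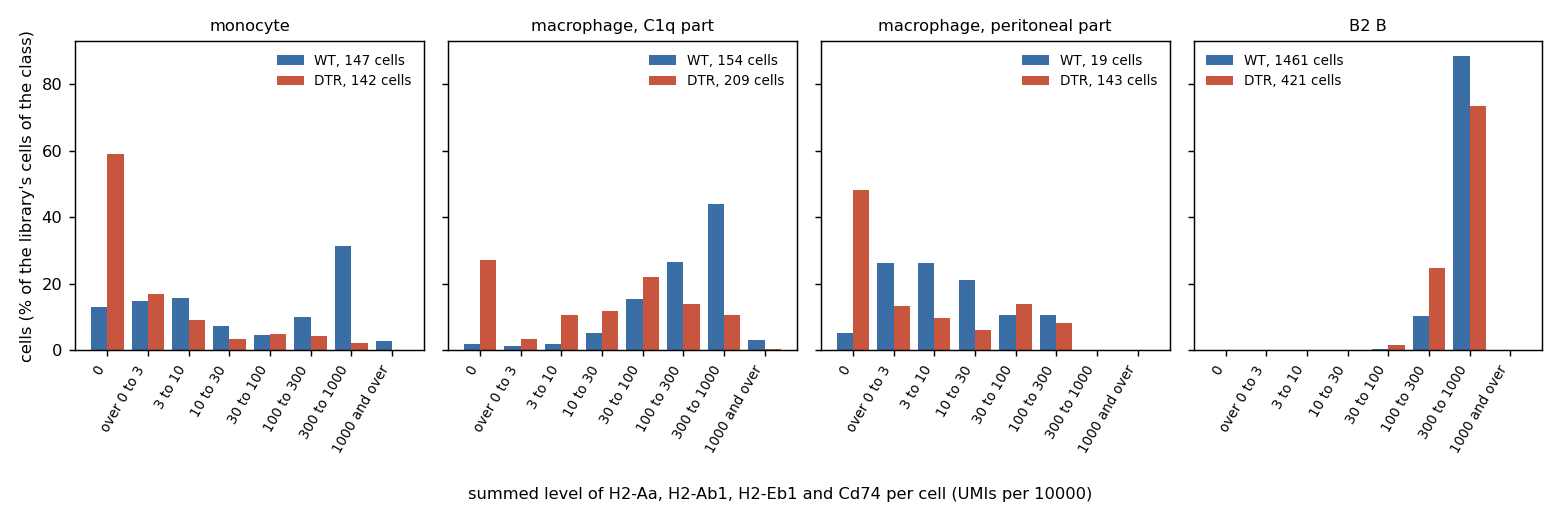
Share of cells (y axis, percent of the library's cells of the class) by core level, the sum of H2-Aa, H2-Ab1, H2-Eb1 and Cd74 (x axis, UMIs per 10000, in bins), for monocytes, the C1q and the peritoneal part of the macrophages, and B2 B cells. In DTR the monocytes pile up at 0 and the C1q macrophages shift towards 0, whereas 99.0% of WT and 98.3% of DTR B2 B cells are at 100 or above.

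The make-up of the monocyte-like class also differed between the libraries. Among its own markers, Ly6c2 (12.4 in WT, 11.2 in DTR) and Ccr2 (9.49 and 7.08) were close, but Chil3, a gene of young Ly6C-high monocytes, was at 4.67 and 61.7, and Vcan at 0.493 and 4.14. Of its remaining markers, Fn1 was also higher in DTR (7.49 in WT, 16.7 in DTR). Ms4a4c (4.46 and 1.66) and Plac8 (29.02 and 20.94) were lower. Of the WT cells 58.5% had no Chil3 UMI, and of the DTR cells 18.3%. Among these Chil3-negative cells (86 in WT, 26 in DTR) H2-Ab1 was at 45.9 in WT and 7.92 in DTR (log2 ratio -2.53) and Cd74 at 183 and 45.4 (-2.01). This gap was smaller but of the same direction, and it rests on few DTR cells. Chil3 was also higher in DTR in the cells outside this class (1.38 in WT, 6.14 in DTR). Cells without a Chil3 UMI therefore need not be alike in the 2 libraries. The part of the make-up in the gap was not tested. The summed level of 14 DC markers was 7.87 in WT and 4.85 in DTR, with 2 and 7 of the 14 at 0, and that of 7 B lymphocyte markers 0.709 and 0.757. In cells with no UMI of a B lymphocyte or DC marker (93 in WT, 103 in DTR) H2-Ab1 was at 29.8 and 1.99. T cell markers were at 0.814 and 0.0571, with 0 and 1 of 7 at 0, and their part in the result was not tested.

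Macrophage-like cells differed in the same direction. Cd74 was at 157 in WT and 33.2 in DTR, H2-Ab1 at 45.2 and 9.71, and H2-Aa at 60.7 and 13.9. The log2 ratios ranged from -2.50 for H2-Eb1 to -0.28 for H2-DMb2. Of 8 members measured, 7 were lower by 1.5-fold or more and 0 higher, with a median of -2.17, against 14.8% lower and 9.96% higher among 3775 genes, whose median was -0.11. From summed UMIs the ratio of H2-Ab1 was -2.16 (-2.23 to -2.09, counting error only). H2-DMa was at 4.72 and 1.71 and H2-DMb1 at 2.38 and 0.542.

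The make-up of this class also differed. At a finer resolution, a part led by Lyve1, Folr2 and the C1q genes made up 154 of 173 WT cells but 209 of 352 DTR cells, and a part led by Alox15, Prg4 and Saa3, genes of peritoneal macrophages, 19 and 143. The peritoneal part had little class II in either library, with H2-Ab1 at 3.07 and 3.04 and Cd74 at 18.6 and 12.9 (19 WT cells are too few for a comparison). Within the C1q part alone H2-Ab1 was at 50.4 in WT and 14.3 in DTR (log2 ratio -1.82), Cd74 at 175 and 47.2 (-1.89), H2-Eb1 at 54.4 and 12.7 (-2.09) and Ciita at 0.660 and 0.108 (-2.17). Its median core level was 290 in WT and 23.0 in DTR, and 74.0% (66.4 to 80.8) and 24.9% (19.2 to 31.3) of its cells were at 100 or above. From summed UMIs the C1q ratios were smaller in size for H2-Ab1 (-1.31), Cd74 (-1.52) and H2-Eb1 (-1.54). The Ciita ratio was larger (-2.32). Thinning, which leaves out shallow cells, kept 151 of 154 WT but 157 of 209 DTR cells of the C1q part. The median depth of the macrophage-like class was 5894 UMIs in WT and 3927 in DTR. Over the whole macrophage-like class 7 B lymphocyte markers summed to 1.87 in WT and 1.37 in DTR, 14 DC markers to 8.13 and 7.88 with 3 and 4 at 0, and 7 plasma cell markers to 3.62 and 11.97. In cells with no UMI of a B lymphocyte or DC marker (118 and 298) H2-Ab1 was at 40.1 and 9.26.

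B cells stayed within 1.5-fold. In B2-like cells (1461 in WT, 421 in DTR) Cd74 was at 280 and 244, H2-Aa at 73.8 and 68.4, and H2-Ab1 at 37.6 and 29.9. All 10 members were measured and all 10 log2 ratios were below 0, from -0.08 for H2-DMb1 to -0.51 for Ciita, but 0 passed 1.5-fold in either direction, against 4.56% lower and 3.74% higher of 7134 genes. The parts of this class were mixed differently in the libraries. In a part of 698 WT and 374 DTR cells all ratios were below 0. In a part of 745 WT and 41 DTR cells H2-Aa (0.03), Ciita (0.10), H2-DMb1 (0.04) and H2-Oa (0.22) were above 0 and the other members below. The median core level of that part was 447 in both libraries. In B1-like cells (1119 and 500) Cd74 was at 202 and 203 and H2-Aa at 49.6 and 57.0. There 10 members were measured and again 0 passed 1.5-fold, with ratios from -0.37 for Ciita to 0.20 for H2-Aa, against 3.68% lower and 4.02% higher of 8044 genes. The median core level of B2-like cells was 439 in WT and 387 in DTR, and that of B1-like cells 304 and 326. Both classes were narrow: the 10th and 90th percentile of B2-like WT cells were 292 and 578.

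**Figure D3:**
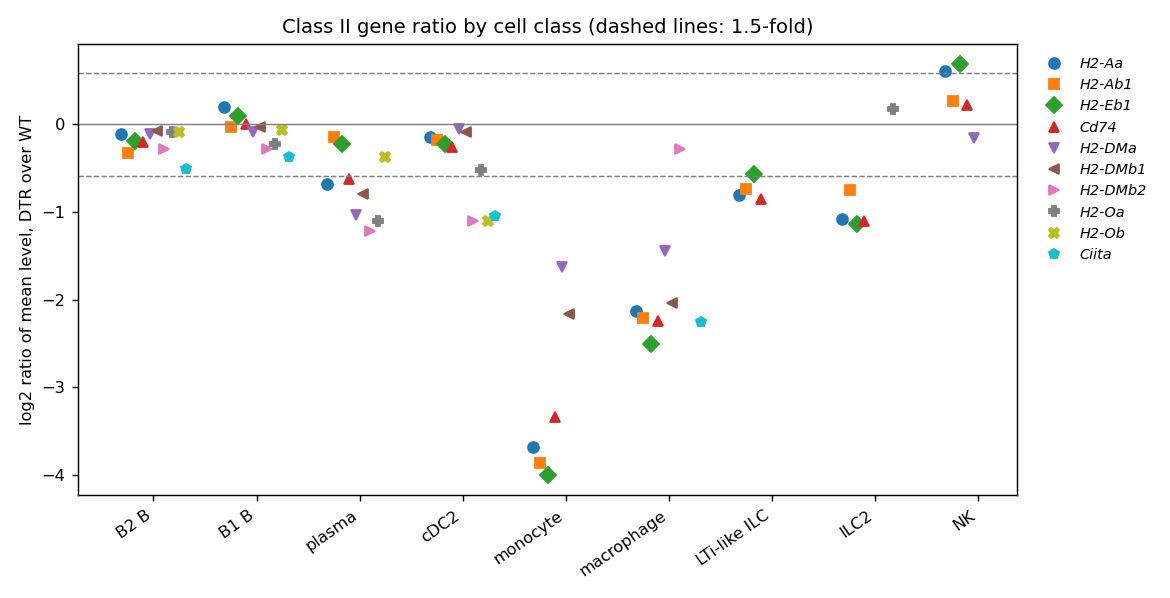
log2 ratio of the mean level in DTR over WT (y axis) for each gene with at least 100 UMIs in a class (x axis), with dashed lines at 1.5-fold. B cells lie near 0, monocytes between -1.63 and -4.00 and macrophages between -0.28 and -2.50. The ILC2 and NK values rest on a few cells.

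Conventional DCs were fewer in DTR, and 7 of 10 members stayed within 1.5-fold in cDC2-like cells. In cDC2-like cells (354 in WT, 51 in DTR) H2-Ab1 was at 80.1 and 70.8, H2-Aa at 116 and 105, Cd74 at 318 and 266 and H2-DMa at 8.14 and 7.82. Of the genes with low levels, H2-DMb2 fell from 3.31 to 1.52, H2-Ob from 0.930 to 0.408 and Ciita from 1.82 to 0.857. These 3 of 10 members were lower by 1.5-fold or more and 0 were higher, with a median of -0.24, against 17.6% lower and 5.93% higher of 5562 genes, whose median was -0.15. For H2-Ob and H2-DMb2 the DTR values rest on 22 and 93 UMIs. A part of the cDC2-like cells led by Tnip3 and Cd209a had H2-Ab1 at 92.6 in 152 WT cells and 95.2 in 26 DTR cells (log2 ratio 0.04) and Cd74 at 346 and 333 (-0.05). A part led by Fscn1 and Ccnd1 had H2-Ab1 at 70.7 in 202 WT cells and 45.4 in 25 DTR cells (-0.64), Cd74 at 296 and 195 (-0.60) and Ciita at 1.93 and 0.510 (-1.82). The median core level was 685 and 725 in the former and 597 and 278 in the latter. In the latter, 7 of 202 WT cells and 6 of 25 DTR cells had a core level below 10. The part of these cells in the lower DTR means was not tested. In cDC1-like cells (150 and 15) H2-Ab1 was at 99.0 and 92.4 and Cd74 at 350 and 337, and in pDC-like cells (59 and 12) at 28.8 and 9.91 and at 161 and 67.1. The DTR cells of these 2 classes were too few for a comparison.

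**Figure D4:**
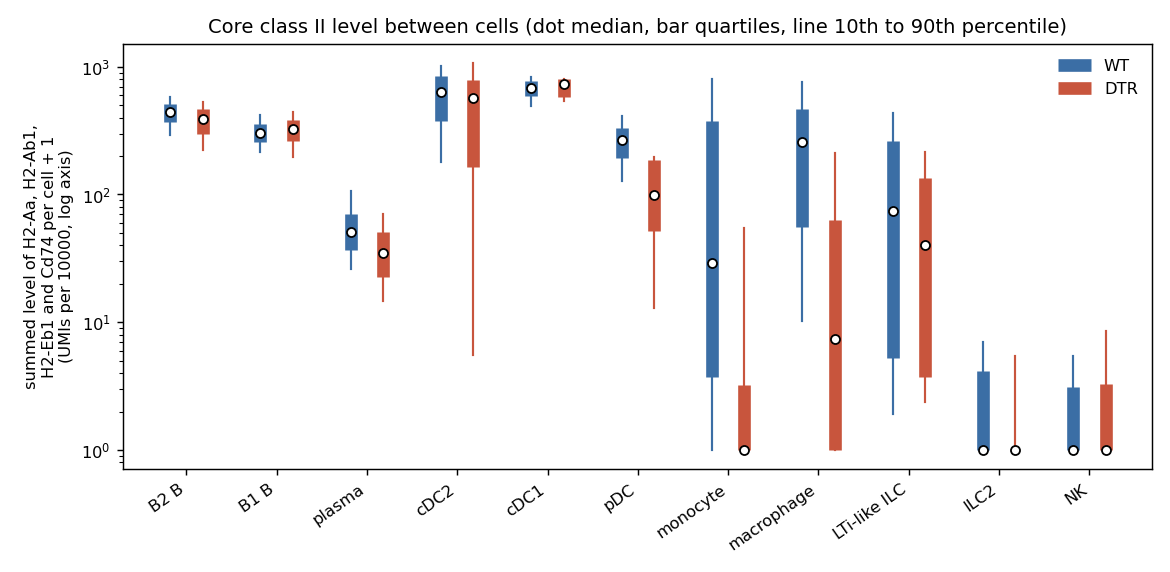
Core level per cell plus 1 (y axis, log axis, UMIs per 10000) by class and library. Dots mark medians, bars the quartiles and lines the 10th to 90th percentile. B cells and cDC1 are narrow and high, WT monocytes, macrophages and LTi-like ILCs span from near 0 to between 435 and 797 at the 90th percentile, and ILC2 and NK medians are 0.

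Plasma-like cells had Cd74 with little of the other members. In WT (556 cells) Cd74 was at 51.5, H2-Ab1 at 3.07 and H2-Aa at 2.57, and in DTR (2060 cells) at 33.5, 2.78 and 1.58. These levels are relative to deep cells. The 556 WT cells held 93815 Cd74 UMIs at a median depth of 29960.5 UMIs. The 1461 WT B2-like cells held 190418 at a median depth of 4390. Per 100 UMIs of H2-Aa and H2-Ab1 there were 862 Cd74 UMIs in WT and 771 in DTR, compared with 249 in B2-like cells of both libraries and 161 and 158 in cDC2-like cells. Ciita, at 0.029 and 0.003, had 62 and 21 UMIs in all. Of 9 members measured, 6 were lower in DTR by 1.5-fold or more and 0 higher, with a median of -0.68, against 4.76% lower and 4.51% higher of 9766 genes. The 6 were Cd74 (log2 ratio -0.62), H2-Aa (-0.68), H2-DMa (-1.04), H2-DMb1 (-0.79), H2-DMb2 (-1.22) and H2-Oa (-1.10). With 0.5 in place of 0.05 added to each level, 1 of the 9 was lower. The parts of this class were mixed differently in the libraries: the largest made up 292 of 556 WT and 634 of 2060 DTR cells, and another 34 and 463. Within the largest, Cd74 (-0.37), H2-Aa (-0.48) and H2-DMb1 (-0.49) stayed within 1.5-fold, and H2-DMa (-0.80) and H2-DMb2 (-1.41) were lower. A part led by the cell cycle genes Cdc20 and Ube2c had the most H2-Ab1 in WT, at 7.81 against 2.10 to 3.45 in the other 4 parts, and 3.94 in DTR. B lymphocyte markers, which plasma cells lose, were at 4.57 in WT and 3.16 in DTR, and their part in the result was not tested. The plasma-like class was 6.42% of the WT and 36.0% of the DTR cells, and it held 7.71% of all core UMIs in WT and 45.2% in DTR, while the share of conventional DCs went from 18.5% to 5.46% for cDC2-like and from 15.4% to 3.37% for cDC1-like cells. These shares depend on the depth of a class as well as on its level. Median depth in DTR was 24360 UMIs in plasma-like and 3195 in B2-like cells. Of the 215763 core UMIs of DTR plasma-like cells, 181993 were Cd74.

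LTi-like ILCs carried class II in both libraries. Cd74 was at 86.9 in WT (56 cells) and 48.0 in DTR (50 cells), H2-Aa at 27.5 and 15.7 and H2-Ab1 at 15.2 and 9.09. Of 4 members measured 3 were lower by 1.5-fold or more and 0 higher, with a median of -0.77, against 7.66% lower and 9.99% higher of 731 genes. Called doublets held 25.7% of the LTi-like core UMIs in WT and 1.5% in DTR. The share of cells with a UMI was close between the libraries. After thinning, 73.2% and 70.0% of these cells had a Cd74 UMI and 42.9% and 42% an H2-Ab1 UMI, whereas 8.95% and 6.11% of T-like cells had a Cd74 UMI. B lymphocyte markers summed to 0.930 in WT and 0.0548 in DTR, with 1 and 5 of 7 at 0, and their part in the result was not tested. Without cells that held a UMI of a B lymphocyte or DC marker, H2-Ab1 was at 15.6 and 8.49.

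In ILC2-like and NK-like cells a few cells held most of the core UMIs. The median core level was 0 in both classes and libraries, and the highest 5% of cells held between 92.8% and 97.4% of the core UMIs. In ILC2-like cells 4 of 5 members were lower by 1.5-fold or more and 0 higher (median -1.08), against 10.0% lower and 9.57% higher of 1860 genes, but called doublets held 91.2% of the WT core UMIs, and from summed UMIs the log2 ratio of H2-Ab1 was 0.33 (-0.08 to 0.73) in place of -0.74. In NK-like cells 0 of 5 members were lower and 2 higher, H2-Aa (1.39 in WT, 2.15 in DTR) and H2-Eb1 (0.991 and 1.62), against 6.55% lower and 2.93% higher of 3784 genes; the median was 0.26. Called doublets held 79.8% of the NK-like core UMIs in WT and 51.9% in DTR.

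H2-Oa, the alpha chain of H2-O, had other values in ILC2-like cells than the core genes. It was at 1.009 in WT and 1.15 in DTR, and 30.5% (57 of 187 cells) and 29.4% (50 of 170) of the cells had an H2-Oa UMI. After thinning these shares were 9.14% (exact 95% interval 5.41 to 14.2) and 11.8% (7.38 to 17.7), against 1.27% and 1.89% in T-like cells, whose median depth was 4609 and 4090 UMIs compared with 3865 and 3173. After the same thinning a Cd74 UMI was found in 15.6% and 6.51% of ILC2-like cells. H2-Ob, the partner chain of H2-Oa, had 15 and 9 UMIs in all. In ILC2-like cells with no B lymphocyte or DC marker UMI, H2-Oa was at 0.939 and 1.198, and H2-Ab1 at 0.058 and 0.051. LTi-like cells with no such UMI had H2-Oa at 1.571 and 0.968, so its level was not particular to ILC2-like cells. Per 100 UMIs of H2-Aa and H2-Ab1, H2-Oa had 24.3 and 21.2 UMIs in ILC2-like, 3.41 and 4.12 in LTi-like and 8.5 and 24.1 in T-like cells. In DTR the ILC2-like ratio was thus not above the T-like one, which had a denominator of 203 UMIs. Reads of H2-Oa and of BC051537 can be told apart only where the counting used strand.

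T-like, neutrophil-like and granulocyte precursor-like cells should hold little class II. Their mean core level was 5.25 in WT and 2.003 in DTR for T-like, 11.9 and 4.04 for neutrophil-like, and 12.2 and 1.81 for granulocyte precursor-like cells. Of the members measured, 5 of 8, 6 of 6 and 7 of 7 were lower by 1.5-fold or more in these classes, against 2.98%, 7.22% and 4.97% of all genes measured there. No member was higher, and the median log2 ratios were -1.07, -1.47 and -2.50. The last was lower than the macrophage-like median of -2.17, but not than the monocyte-like one of -3.51. Of all genes, 3.75% were higher in T-like and 2.04% in granulocyte precursor-like cells. In neutrophil-like cells 647 of 4307 genes were higher and 311 lower. The monocyte-like mean was 248 in WT and 21.1 in DTR, and the macrophage-like mean 312 and 65.3, above these 3 classes in both libraries. Called doublets held 86.4% of the T-like core UMIs in WT and 55.0% in DTR, 82.0% and 91.5% of the neutrophil-like and 71.3% and 36.1% of the granulocyte precursor-like ones. The highest 5% of cells held 69.3% to 96.0% of the core UMIs of these classes, and the median core level was 0.224 in WT granulocyte precursor-like cells and 0 in the others. The part of RNA from other cells in the myeloid values was not tested.

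The 2 beta chains of H2-DM, which pair with the alpha chain H2-DMa, stood in a different proportion in B cells than in DCs and myeloid cells. Per 100 UMIs of H2-Aa and H2-Ab1, H2-DMb2 had 7.54 UMIs (95% Poisson interval 7.35 to 7.74) in WT B2-like and 8.79 (8.58 to 9.01) in B1-like cells, but 1.71 (1.62 to 1.80) in cDC2-like, 0.339 (0.257 to 0.439) in macrophage-like and 0.211 (0.132 to 0.320) in monocyte-like cells. H2-DMb1 ran the other way, with 1.21 in B2-like, 0.935 in B1-like, 3.35 in cDC2-like, 3.93 in cDC1-like and 5.56 in monocyte-like cells. In WT the counting intervals of the B cell classes did not overlap those of these DC and myeloid classes for either gene. Such intervals hold no error between cells or mice, so this is a description and no test between classes. In DTR, H2-DMb2 was at 7.04 in B2-like, 6.45 in B1-like, 3.34 in monocyte-like, 1.10 in cDC2-like and 0.856 in macrophage-like cells. The counting intervals of the B cell classes overlapped. The monocyte-like value, above the cDC2-like one, rests on 21 UMIs in 5 of 142 cells, 8 of them in 1 cell. The H2-DMb2 level of monocyte-like cells was 0.148 in WT and 0.122 in DTR. In DTR monocyte-like cells with no UMI of a B lymphocyte or DC marker it was 0.0. H2-DMb1 was at 1.34 in B2-like, 0.870 in B1-like, 3.11 in cDC2-like and 15.8 in monocyte-like cells of DTR. H2-DMa ranged from 3.67 in cDC1-like to 6.28 in pDC-like cells among the B cell, DC, monocyte-like and macrophage-like classes of WT. In monocyte-like cells the DTR ratios have a small denominator, 628 UMIs of H2-Aa and H2-Ab1 against 10415 in WT. H2-DMa stood at 5.89 per 100 in WT and 28.7 (24.6 to 33.2) in DTR, while the gene itself went from 614 to 180 UMIs and its level from 4.49 to 1.41. A part of the H2-DMb1 and H2-DMb2 sequence is shared, which limits how far their levels can be told apart.

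**Figure D5:**
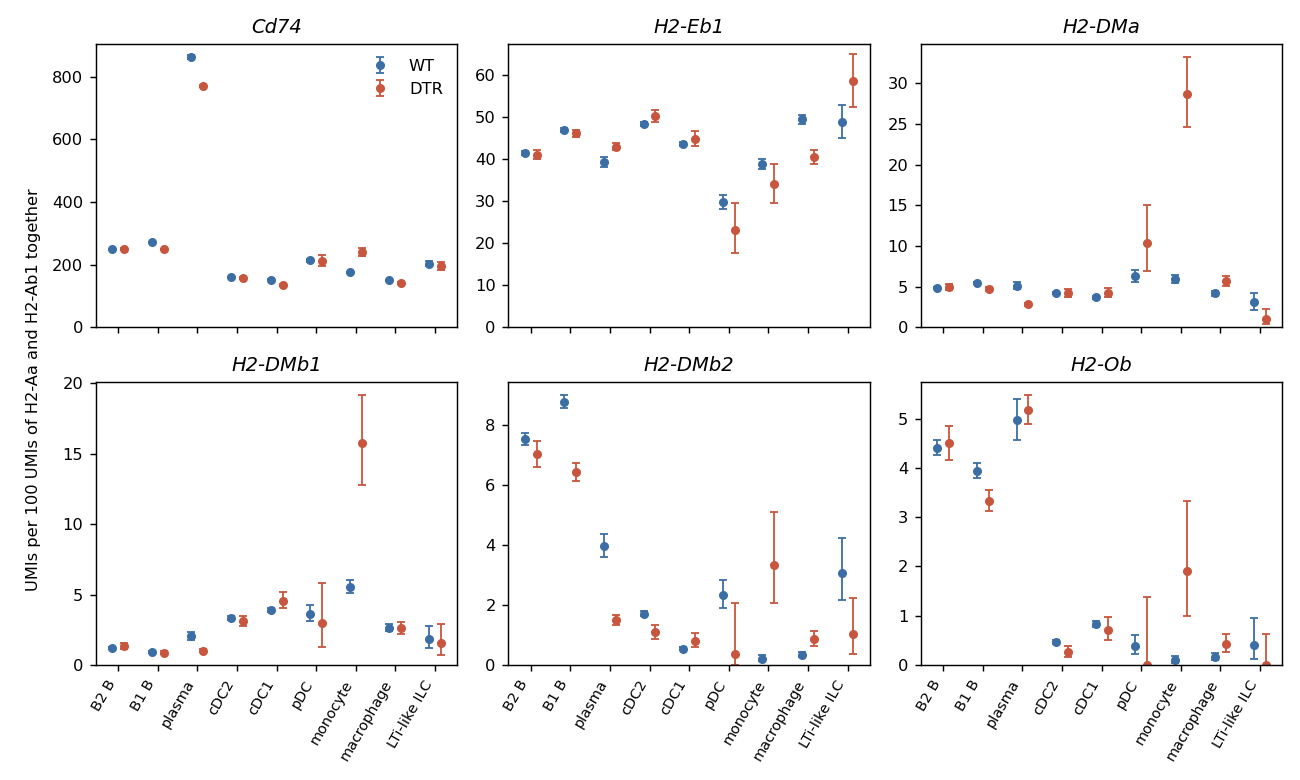
UMIs of 6 genes per 100 UMIs of H2-Aa and H2-Ab1 together (y axes) in 9 classes of the WT and DTR libraries. Bars are exact 95% Poisson intervals of the gene's UMIs, with the denominator taken as fixed. Cd74 stands out in plasma cells, H2-DMb2 in B cells, H2-Ob in B cells and plasma cells, and H2-DMb1 in DCs and monocytes. The DTR monocyte ratios of H2-DMa and H2-DMb1 are high over a denominator of 628 UMIs, and the levels of both genes were lower there than in WT.

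Of the modulator H2-O, H2-Ob was highest in B cells and H2-Oa in B2-like cells. H2-Ob was at 5.05 in WT and 4.74 in DTR in B2-like cells, at 3.07 and 2.93 in B1-like cells, at 1.92 and 1.90 in cDC1-like cells and at 0.930 and 0.408 in cDC2-like cells. Monocyte-like cells had 10 and 12 H2-Ob UMIs in all. H2-Oa was at 4.25 and 3.99 in B2-like cells and 1.93 and 1.65 in B1-like cells, at 2.43 and 1.68 in cDC2-like cells and at 2.42 and 2.01 in cDC1-like cells. In WT pDC-like cells H2-Oa was at 2.57 with H2-Ob at 0.206. Both genes were higher in B2-like than in B1-like cells of each library. At a finer resolution, 375 of the WT and 101 of the DTR B1-like cells fell in a cluster named B2-like by its markers. In these cells H2-Oa was at 2.50 and 2.25 and H2-Ob at 3.68 and 3.42, below the B2-like levels.

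Ciita had few UMIs per cell in every class. It was at 1.82 in WT cDC2-like, 1.80 in cDC1-like, 1.34 in B2-like, 0.683 in monocyte-like, 0.601 in B1-like, 0.587 in macrophage-like and 0.509 in pDC-like cells. In DTR it was at 0.928 in B2-like and 0.453 in B1-like cells, but at 0.053 in monocyte-like and 0.084 in macrophage-like cells, the classes with the lowest ratios of the heterodimer genes. The monocyte-like counts were 92 UMIs in WT and 7 in DTR, for a log2 ratio of summed UMIs of -3.69 (-5.04 to -2.59, counting error only). In T-like cells 38 UMIs in 3071 WT cells and 1 UMI in 477 DTR cells were counted.

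Another 34 genes of the pathway were listed by role. In monocyte-like cells 7 of 21 measured were lower by 1.5-fold or more and 2 higher, against 13.6% lower and 7.98% higher of all genes. Among the lower ones were the co-stimulatory receptor Cd40 (0.612 in WT, 0.107 in DTR), Cd83 (3.35 and 1.11), which keeps class II on the surface, Irf8, Ifngr1 and the cathepsins Ctss and Ctsz. The cathepsins Ctsl (0.638 and 3.08) and Ctsd (2.82 and 5.07) were higher. In macrophage-like cells 5 of 19 were lower (among them Cd40, Cd83, Ifngr1 and the thiol reductase Ifi30) and Ctsl and Ctsd were again the 2 that were higher, Ctsl from 2.05 to 5.96, against 14.8% lower and 9.96% higher of all genes. In cDC2-like cells 4 of 29 were lower (among them Cd40, Rfxap and Ifngr1) and 4 higher (Ctsl, Irf8, Lgmn and Ctsd), against 17.6% lower and 5.93% higher of all genes, so the share lower was not above the background. B2-like cells had 3 of 30 lower (among them Irf4 and Irf1) and 0 higher, against 4.56% and 3.74%. B1-like cells had 3 of 32 lower (among them Cd40 and Rfx5) and 1 higher (Lgmn), against 3.68% and 4.02%. Plasma-like cells had 7 of 33 lower (Pax5, Ifngr1, Jak2, Ctss, Cd83, Cd40 and Icosl) and 2 higher (H2-Eb2 and Ctsz), against 4.76% and 4.51%.

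The genes of the complex that holds the class II promoter, Rfx5, Rfxap, Rfxank, Nfya, Nfyb, Nfyc and Creb1, had 0 of 7 past 1.5-fold in B2-like and in plasma-like cells, 1 of 7 lower in B1-like cells (Rfx5, log2 ratio -0.74) and 1 of 5 lower in cDC2-like cells (Rfxap, -0.91). In monocyte-like cells Creb1 alone had enough UMIs (-0.30). Ifngr1, a chain of the interferon gamma receptor, was lower in monocyte-like (8.01 in WT, 5.08 in DTR), macrophage-like (2.76 and 1.71), cDC2-like (4.01 and 2.48) and plasma-like cells (0.180 and 0.091). It was higher in LTi-like (9.76 and 24.5), ILC2-like (2.63 and 7.84) and T-like cells (8.71 and 15.4). LTi-like cells had 0 lower and 1 higher of 2 pathway genes measured, against 7.66% and 9.99% of all genes. ILC2-like cells had 2 lower (among them Ctsb) and 1 higher of 8, against 10.0% and 9.57%, and NK-like cells 0 lower and 1 higher (Cd83) of 15, against 6.55% and 2.93%. The class I genes, given for comparison, were lower in monocyte-like cells (H2-K1 -0.99, H2-D1 -0.83, B2m -0.68), where these 3 of 3 passed 1.5-fold, and 0 of 3 did so in macrophage-like cells, in which H2-K1 had a ratio of -0.23.

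Over 29 points, each a class of 1 library with at least 20 cells, the genes whose log2 level most resembled the mean of the 4 core genes were Cd83 (Pearson r = 0.87), Rasgef1b (0.85), Cd40 (0.81), Plekhm3 (0.80), Cd180 (0.80), Plekho1 (0.80), Filip1l (0.80), Mef2c (0.79), Cd2ap (0.77) and Scpep1 (0.77), out of 7415 genes outside the 10. Among the members themselves r was 0.94 for Ciita, 0.90 for H2-DMb1 and for H2-DMa, 0.80 for H2-DMb2, 0.64 for H2-Oa and 0.63 for H2-Ob. The points of a library share its depth and free RNA, so these values are a description.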

How the data were processed

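Leukocytes of WT and DTR omenta were profiled as 1 library per group, each of 3 pooled mice. The submitters' processing notes name Cell Ranger 6.0.0 and mm10. The labels and the study's methods name different kit chemistries, so the counted transcript end is not certain. The authors deposited natural log values of 1 plus UMIs scaled to 10000 per cell, where counts had been planned for. Of the back-transformed values, 99.95% (WT) and 99.89% (DTR) were whole UMIs within 0.1, and these recovered UMIs gave the sums and the exact 95% intervals. Totals were 80152113 and 81011255 UMIs. The intervals cover counting error only.

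Cells with 200 to 7500 genes and at most 25% mitochondrial UMIs were kept (8654 of 8686 barcodes in WT, 5727 of 5736 in DTR). Cells were normalised and clustered at resolution 0.8 with Seurat 5.3.0 and sctransform 0.4.2 in R 4.3.3 (3000 variable genes, 30 components), leaving out 343 V, D and J segments and 47 class II and pathway genes. A cluster was named when at least 3 and at least 0.5 of a class's fixed markers passed, with a lead of 0.15 over the next class, and when called doublets made up under 25% of it. Of the 6 clusters left unnamed (440 WT and 269 DTR cells), 4 were over that doublet limit, among them plasma-like, T-like and B1-like ones by their markers. All 6 were left out of the comparisons, and classes with under 20 cells in a library were not compared. Names are rebuilt from markers and can differ from the study's. Doublets were scored with Scrublet in scanpy 1.11.5. Its automatic threshold marked 0.023% of WT cells, so the top-scoring 6.92% (WT) and 4.57% (DTR), at 0.8% per 1000 cells, were called. In named clusters they were kept, and left out as an alternative. Thinning drew 1000 UMIs per cell and left out shallower cells, 1 and 0 monocyte-like and 3 and 53 macrophage-like in WT and DTR.

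A gene was measured in a class with at least 100 UMIs over both libraries, and called past 1.5-fold of the mean levels plus 0.05. All 10 members are named. Pathway genes are named from those past 1.5-fold in a class that presents antigen, as are the 10 most similar genes by Pearson correlation. Not all pathway genes are named, and 1 result is not reported here. Symbols of 1078 rows, Cd74 among them, came from GENCODE M21, which held 19950 of the 19960 identifiers. The members and lists were chosen with earlier results of these data known. The calculation was tested on simulated data. Alternatives were summed UMIs, other totals, centring, thinning, a larger pseudocount, other minimums of UMIs and genes, no doublets, other resolutions, clustering with the class II genes, and cells without UMIs of other classes' markers. Python 3.11.15, numpy 2.4.6 and scipy 1.17.1 were used.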

Additional observations from a re-analysis of the deposited data

Results flagged for a closer look

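In NK-like cells H2-Aa was higher in DTR, with a log2 ratio of 0.607, whereas it was lower by 1.5-fold or more in 5 other classes. H2-Eb1 was also higher in NK-like cells, with a log2 ratio of 0.684, and lower by 1.5-fold or more in 3 other classes. With 1 library per group the difference between classes was not tested. The highest 5% of NK-like cells held 95.1% of the core UMIs in WT and 93.4% in DTR.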

How the results depend on the processing

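No paired analysis was possible because each group was 1 library with no replicate number. Over 13 alternatives 742 log2 ratios were recomputed, of which 705 kept their direction and their side of 1.5-fold, 15 no longer passed 1.5-fold, 14 newly passed it and 8 changed sign. The 8 were, in ILC2-like cells, from summed UMIs, H2-Aa at 0.34, H2-Ab1 at 0.32, H2-Eb1 at 0.15 and Cd74 at 0.041, and, without called doublets, H2-Aa at 0.78, H2-Eb1 at 0.54 and Cd74 at 0.60, and in cDC2-like cells, thinned, H2-Ob at 0.069. The number of members lower in ILC2-like cells went from 4 to 0 from summed UMIs, 0 without called doublets (2 were then higher) and 1 in cells with no UMI of B lymphocyte or DC markers. The number higher in NK-like cells went from 2 to 1 thinned, 0 with a pseudocount of 0.5, 4 without called doublets and 1 in cells with no such marker UMI. In plasma-like cells the number lower went from 6 to 1 with a pseudocount of 0.5 and to 10 at resolution 0.4, and in LTi-like cells from 3 to 6 with at least 20 UMIs. The cause was not tested. The monocyte-like log2 ratio of H2-Ab1 ranged from -4.29 to -2.53 over 12 alternatives and the macrophage-like one from -2.31 to -2.07. Resolution 0.4 gave no monocyte-like and no cDC2-like class. The alternatives on marker and Chil3 UMIs were chosen after seeing the data. With 1 library per group, no depth replaces the missing error between mice.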
